A study of Mus musculus with 12 samples.

Results

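Whole-kidney RNA-seq libraries of mice labelled Tet2-/- were compared with those of WT mice after renal ischemia-reperfusion (IR), and the account covers functions other than cytokines, neutrophil markers and amino acid catabolism. The comparison took every library whose labels give renal IR injury as the treatment, which are 6 of the 12 libraries of the study. The 3 WT IR and 3 Tet2-/- IR libraries came from male mice labelled C57BL/6 (C57BL/6J in the study's methods) at 6 weeks of age, 1 mouse per library. The pedicle of the right kidney was clamped for 60 min, the left kidney was removed, and tissue was taken 24 h after the operation. The other 6 libraries, 3 WT control and 3 Tet2-/- control, are labelled healthy controls, and they serve here as the background without an operation; no sham-operated libraries were analysed here, so a change against them would include surgery and the loss of the other kidney. Both genotypes were bred from Tet2+/- parents, and the methods name no tissue-specific driver, so blood cells and kidney carry the same labelled genotype.

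Tet2 oxidizes 5-methylcytosine in DNA, a step towards removing methylation from promoters and enhancers. In the kidney, the cells of the proximal tubule reabsorb most of the filtered solutes with dense arrays of sodium-coupled transporters and burn fatty acids to do so, and they are among the cells most sensitive to ischemia. Injured tubule cells lose transporters and metabolic enzymes, switch on stress and cytoskeletal genes, and re-enter a repair program, while blood leukocytes enter the tissue.

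The transcript of the targeted gene did not follow the labels in one direction. *Tet2* had 9.34, 3.97 and 3.85 FPKM (fragments per kilobase of transcript, scaled to library depth) in the WT IR libraries and 2.64, 3.20 and 1.76 FPKM in those labelled Tet2-/- IR. The groups did not overlap after IR, but the difference missed the limit (log2 fold change -1.28 ± 0.36, edgeR quasi-likelihood adjusted p = 0.0705), and without an operation the libraries labelled Tet2-/- had 9.24, 16.6 and 10.3 FPKM against 9.15, 6.25 and 7.33 in the WT ones. The 2 genotype differences differed from each other (interaction -2.001, edgeR quasi-likelihood adjusted p = 0.0286), and after IR the difference passed with DESeq2, edgeR's exact test and a fit of all 12 libraries (adjusted p = 0.0061, 0.00802 and 0.0256), over a range of adjusted p from 0.0061 to 0.154 in the alternatives. The allele is not described in the sources used here, and a transcript-wide level says little about a deletion of part of the gene, so groups are named by their labels throughout. *Tet1* (-0.15) and *Tet3* (0.29) were not called either, and none of the 15 tested genes for 5mC oxidation, base excision and DNA methylation was called by the quasi-likelihood test. Of the 15, 4 passed at an unadjusted p under 0.05, and DESeq2, the exact test and the fit of all 12 libraries called 1, *Tet2*. Without Tet2-/- IR 2 the quasi-likelihood test called 1 gene of the list lower, which was not *Tet2*.

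Depth per library, with 1 transcript counted per gene symbol, was 51007366 to 64130607 counts in the WT IR libraries and 68893910 to 94522011 in those labelled Tet2-/- IR. The WT IR libraries were not alike. WT IR 1 had the lowest summed level of 22 tubular injury genes (3254, 9426 and 7591 FPKM in WT IR 1 to 3, in that order). *Spp1* alone made up most of that sum in WT IR 2 and WT IR 3. WT IR 3 had the lowest summed level of 14 podocyte and mesangial genes (75.7, 60.5 and 12.9 FPKM) and of 15 endothelial genes (166, 108 and 29.9 FPKM). Each call was repeated in 6 fits that left out 1 library in turn, and calls that did not hold are named beside the results with the libraries whose absence ended them, the range of the log2 fold change over the 6 fits and the highest quasi-likelihood adjusted p.

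A gene was called when its Benjamini-Hochberg adjusted p over all 16186 tested genes was under 0.05 and its log2 fold change was beyond 1 in either direction; a negative log2 fold change means lower in the libraries labelled Tet2-/- IR, and ± gives its standard error. With 3 libraries per group, 347 genes (2.14%) were called higher and 613 (3.79%) lower, 5.93% in all, against 2 of 16086 genes (0.0124%) in the same genotype comparison without an operation. At an unadjusted p under 0.05, 4659 genes (28.8%) passed. All 960 called genes had no overlap between the groups, as had 17.5% of all tested genes on the higher side and 18.5% on the lower side. The median log2 fold change over all tested genes was 0.04, and with library totals in place of TMM scaling it was 0.14, a shift of 0.10 that lowered the share of called genes on the lower side from 63.9% to 54.6%. The higher count fell to 55 without WT IR 1, 79 without WT IR 3, 103 without Tet2-/- IR 1, 168 without Tet2-/- IR 2 and 191 without Tet2-/- IR 3, and the lower count fell to 218 without WT IR 1, 284 without WT IR 3, 285 without Tet2-/- IR 1 and 356 without Tet2-/- IR 2. Of the called genes, 144 belonged to 1 of 40 function lists written for the kidney, which together held 1378 tested genes.

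**Figure D1:**
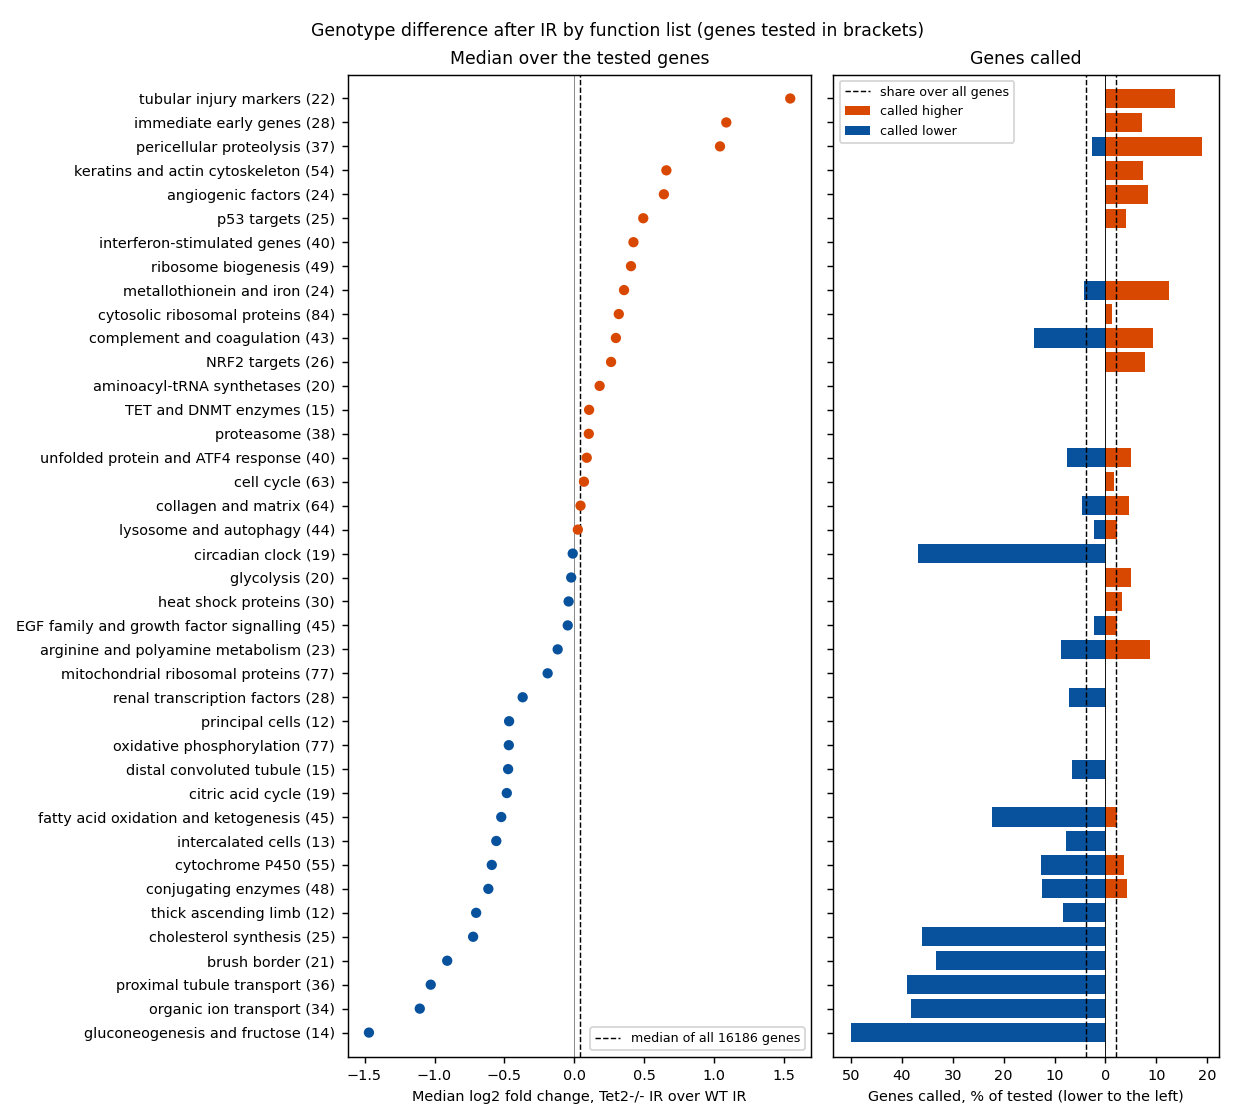
Median log2 fold change over the tested genes of each of 40 function lists (left) and the share of those genes called higher or lower (right), libraries labelled Tet2-/- IR against WT IR, 3 libraries each; dashed lines mark all 16186 genes. Lists of proximal tubule transport and metabolism lie at the bottom, down to a median of -1.47, and injury, immediate early and proteolysis lists lie at the top, up to 1.54.

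Of 36 tested genes for proximal tubule transport, 14 were called lower in the libraries labelled Tet2-/- IR and none higher, against 3.79% of all genes on the lower side, with a median log2 fold change of -1.03. Without an operation the same list had a median of -0.01. The summed level of the list was 3407, 2801 and 3172 FPKM in the WT IR libraries and 1739, 1544 and 1716 FPKM in those labelled Tet2-/- IR, with no overlap, against 3662 to 4448 FPKM in the controls of both genotypes. The number called lower was 9 without Tet2-/- IR 1, and 10 to 15 in the other fits that left out 1 library.

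By role, the members called lower spanned amino acid, phosphate, carboxylate and protein uptake. *Slc34a1*, the sodium-phosphate cotransporter NaPi-IIa, had 760.0, 477 and 716 FPKM in the WT IR libraries and 228, 188 and 214 FPKM in those labelled Tet2-/- (log2 fold change -1.74 ± 0.27, edgeR quasi-likelihood adjusted p = 0.0175). *Slc7a13*, an amino acid carrier of the late proximal tubule, had 116, 89.4 and 58.1 FPKM against 15.3, 9.71 and 5.18 FPKM (log2 fold change -3.22 ± 0.41, edgeR quasi-likelihood adjusted p = 0.0123). Both were below the control range of 1302 to 1811 FPKM and 276 to 432 FPKM in all 6 IR libraries and lowest in those labelled Tet2-/-. *Slc3a1*, the heavy chain of the cystine transporter, had 335, 219.6 and 214 FPKM against 81.7, 72.3 and 73.6 FPKM (log2 fold change -1.85 ± 0.22, edgeR quasi-likelihood adjusted p = 0.0114). *Slc6a20b*, a proline and imino acid transporter, had 51.7, 38.3 and 33.8 FPKM against 7.42, 8.57 and 6.53 FPKM (log2 fold change -2.56 ± 0.17, edgeR quasi-likelihood adjusted p = 0.00656). *Slc5a8*, which carries lactate and other monocarboxylates, had 37.2, 20.5 and 21.0 FPKM against 4.75, 4.50 and 3.58 FPKM (log2 fold change -2.71 ± 0.26, edgeR quasi-likelihood adjusted p = 0.0104). Against control ranges of 201 to 299.9, 35.4 to 60.1 and 26.1 to 48.9 FPKM, all 3 libraries labelled Tet2-/- IR lay below in each of these genes, while the WT IR libraries lay within or above them, apart from WT IR 2 and 3 in *Slc5a8* and WT IR 3 in *Slc6a20b*, which were below. Of 4 genes for the endocytosis of filtered protein 2 were called, *Cubn* (cubilin) at 33.6, 29.4 and 26.4 FPKM against 9.21, 10.4 and 6.70 FPKM (log2 fold change -1.87 ± 0.17, edgeR quasi-likelihood adjusted p = 0.0104) and *Lrp2* (megalin) at 87.9, 70.4 and 57.6 FPKM against 23.8, 19.0 and 22.5 FPKM (log2 fold change -1.81 ± 0.22, edgeR quasi-likelihood adjusted p = 0.0114). *Amn* (-0.71) and *Dab2* (0.27), which act with them, were not called. *Slc7a12*, a relative of *Slc7a13*, had the largest size at -5.58, but its level in WT IR 1 (23.1 FPKM) was far above WT IR 2 and 3 (1.26 and 1.76 FPKM). None of the 5 sodium-glucose and sugar carriers was called by the quasi-likelihood test (median -0.75, 4 at an unadjusted p under 0.05), nor either acid-base transporter. DESeq2, the exact test and a fit of all 12 libraries each called 1 gene of the whole transport list higher. With each library left out in turn, *Slc7a13*, *Slc3a1*, *Slc6a20b*, *Slc5a8*, *Cubn* and *Lrp2* all kept their calls. *Slc34a1* lost its call without Tet2-/- IR 1 or WT IR 1 or 3 (-1.95 to -1.60, p up to 0.0611). *Slc7a12* was not called without Tet2-/- IR 1, 2 or 3 or WT IR 1 or 3 (-6.10 to -3.14, p up to 0.113).

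**Figure D2:**
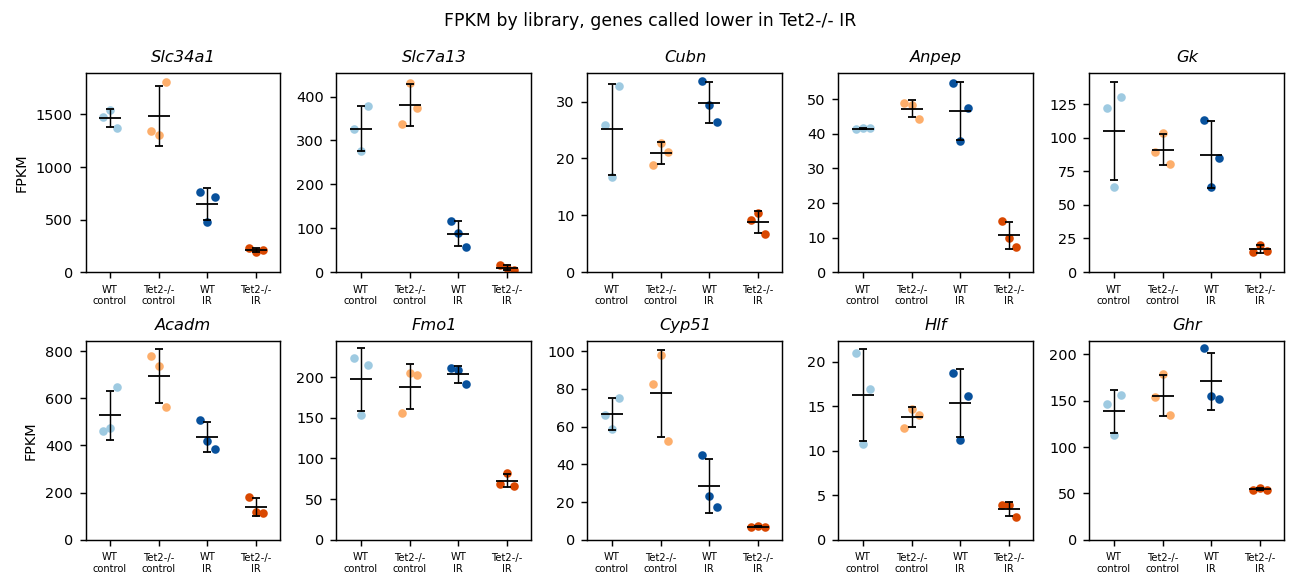
FPKM of 10 genes called lower, by library in the 4 groups; points are libraries, the bar is the mean and the whiskers the SD of 3. In each panel the 3 libraries labelled Tet2-/- IR lie below the 3 WT IR libraries, for example 188 to 228 against 477 to 760 FPKM for *Slc34a1*.

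Promoters of 2 of these genes are shown because 10 of the 36 transport genes (27.8%) held the HNF1 motif GTTAAT, read on both strands in the 250 bases before and 50 bases after the start, against 4.64% of all promoters. In the organic ion list, which also had many calls, 3 of 34 (8.82%) held it, and of the 36 transport genes *Slc3a1* alone held the HNF4 site (2.78%). HNF1 and HNF4 are transcription factors that maintain the proximal tubule. Sequences are from the mm9 assembly, 5′ to 3′ on the gene's strand, and capitals mark GTTAAT (or its reverse complement) in both and the HNF4 site CAAAGTCCA in *Slc3a1*.
*Slc34a1*, chr13:55500759-55501058, plus strand: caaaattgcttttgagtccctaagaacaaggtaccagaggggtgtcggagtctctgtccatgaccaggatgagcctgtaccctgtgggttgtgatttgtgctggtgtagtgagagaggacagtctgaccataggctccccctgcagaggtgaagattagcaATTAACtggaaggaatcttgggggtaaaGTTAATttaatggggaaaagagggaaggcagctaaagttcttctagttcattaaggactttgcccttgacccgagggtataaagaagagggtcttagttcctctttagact
*Slc3a1*, chr17:85427437-85427736, plus strand: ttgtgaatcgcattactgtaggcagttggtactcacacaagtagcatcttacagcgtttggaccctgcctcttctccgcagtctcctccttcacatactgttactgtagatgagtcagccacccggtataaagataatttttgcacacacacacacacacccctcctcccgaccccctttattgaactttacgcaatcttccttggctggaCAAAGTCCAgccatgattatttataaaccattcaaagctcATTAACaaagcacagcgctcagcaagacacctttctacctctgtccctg
*Slc34a1* held the HNF1 motif at 2 places and *Slc3a1* at 1. *Slc6a20a*, *Slc7a13*, *Slc7a12* and *Slc36a1*, also called lower, held it too, as did *Slc5a10*, *Slc6a18*, *Slc6a19* and *Dab2*, which were not called. *Hnf4a* itself had 155, 148 and 147 FPKM against 82.5, 97.3 and 101 FPKM, no overlap but a fold change under the limit (log2 fold change -0.78 ± 0.17, edgeR quasi-likelihood adjusted p = 0.0383).

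Of 34 tested carriers of organic ions, which move drugs, urate and metabolites across the tubule, 13 were called lower (38.2% against 3.79% of all genes) and none higher (median -1.11, without an operation 0.02), and 10 of these were among the 13 organic anion transporters, whose median was -2.11. *Slc22a12*, the urate exchanger URAT1, had 822, 699 and 529.7 FPKM in the WT IR libraries and 355, 252 and 173 FPKM in those labelled Tet2-/- (log2 fold change -1.49 ± 0.29, edgeR quasi-likelihood adjusted p = 0.0278). *Slc22a13*, another urate and nicotinate carrier, had 57.7, 23.2 and 20.9 FPKM against 6.10, 2.37 and 0.770 FPKM (log2 fold change -3.55 ± 0.77, edgeR quasi-likelihood adjusted p = 0.0354). The main basolateral anion carriers *Slc22a6* (-1.10) and *Slc22a8* (-1.59) were not called, although their groups did not overlap, and none of 6 ATP-driven export pumps was called. The list count was 3 without WT IR 1 or WT IR 3, 4 without Tet2-/- IR 2 and 8 without Tet2-/- IR 3, and 9 to 10 in the other fits that left out 1 library. Members of the Slc22a family are close paralogs, and how reads shared between them were assigned is not given in the sources used here. *Slc22a12* lost its call without Tet2-/- IR 2 or 3 or WT IR 1, 2 or 3 (-1.79 to -1.30, p up to 0.092). *Slc22a13* was not called without Tet2-/- IR 2 or 3 or WT IR 1 or 3 (-4.56 to -2.96, p up to 0.099).

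Of 21 brush border genes 7 were called lower (33.3% against 3.79% of all genes) and none higher (median -0.91). *Anpep*, aminopeptidase N, had 54.8, 38.0 and 47.4 FPKM against 14.9, 9.91 and 7.20 FPKM (log2 fold change -2.24 ± 0.29, edgeR quasi-likelihood adjusted p = 0.0126). *Mep1a* and *Mep1b*, the meprin metalloproteases, had 564, 429 and 424 FPKM against 213, 161 and 116 FPKM and 70.3, 24.9 and 18.4 FPKM against 4.801, 1.35 and 1.30 FPKM, log2 fold changes of -1.63 and -3.9998. The scaffold *Pdzk1*, which anchors apical transporters, had 519.5, 359 and 401 FPKM against 95.8, 174 and 169 FPKM. The 3 libraries labelled Tet2-/- lay below all WT IR libraries in each. The number called lower was 2 without WT IR 1 and 4 without Tet2-/- IR 2 or WT IR 3, and 6 to 8 in the other fits that left out 1 library. In the 6 fits that each dropped 1 library, *Anpep* kept its call. *Mep1a* lost its call without Tet2-/- IR 2 or WT IR 1 or 3 (-1.88 to -1.47, p up to 0.063). *Mep1b* was not called without Tet2-/- IR 2 or 3 or WT IR 1 (-4.91 to -3.22, p up to 0.0647). *Pdzk1* lost its call without Tet2-/- IR 1 or 2 or WT IR 1 or 3 (-1.83 to -1.42, p up to 0.0715).

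In 4 lists for segments beyond the proximal tubule 0 or 1 gene each was called lower and none higher, against 3.79% of all genes on the lower side. In the thick ascending limb 1 of 12 genes (8.33%) was called lower, the claudin *Cldn10*, at 80.5, 73.3 and 64.7 FPKM against 22.6, 35.6 and 19.1 FPKM (log2 fold change -1.61 ± 0.20, edgeR quasi-likelihood adjusted p = 0.0117). *Slc12a1*, the target of loop diuretics, had 116, 88.2 and 85.9 FPKM against 56.6, 46.0 and 18.3 FPKM with no overlap and missed the limit (log2 fold change -1.38 ± 0.37, edgeR quasi-likelihood adjusted p = 0.064). The summed level of that list was 2326, 2792 and 486 FPKM in the libraries labelled Tet2-/- IR, so Tet2-/- IR 3 alone lay below the WT IR range of 1594 to 2095 FPKM. *Umod* alone made up most of each of these sums, at 2018, 2512 and 354 FPKM. In the distal convoluted tubule the only call among 15 genes was *Kl*, the FGF23 co-receptor Klotho, at 52.4, 43.7 and 51.8 FPKM against 21.8, 23.6 and 15.3 FPKM (log2 fold change -1.40 ± 0.19, edgeR quasi-likelihood adjusted p = 0.0129), while the cotransporter *Slc12a3* had 61.1, 63.7 and 79.5 FPKM against 70.9, 91.3 and 25.2 FPKM with overlap (-0.27). Counts with other tests or scalings are given here and for some later lists, and not every move is given. The thick ascending limb count was 4 with DESeq2, the exact test, all 12 libraries or the replicate block, and the distal count 3 with the exact test and 4 with DESeq2. The intercalated count was 0 with library totals, upper quartile factors or no filter on low counts, and 3 with DESeq2, the exact test or all 12 libraries. That of renal transcription factors was 1 with library totals, limma or the replicate block. None of 12 principal cell genes was called (*Aqp2* -0.58; 5 at an unadjusted p under 0.05, 2 lower with DESeq2 and the exact test, none with limma), and of 13 intercalated cell genes only the anion exchanger *Slc4a1* was (-2.67, 7.10, 4.33 and 4.72 FPKM against 0.506, 2.02 and 0.294 FPKM), a gene that red cells also express; the proton pump subunit *Atp6v1b1* had -1.01 with overlap. Of 28 renal transcription factors 2 (7.14%) were called lower, *Klf15* (-1.37), a regulator of fasting metabolism, and *Emx1* (-1.28). The intercalated count was 0 without Tet2-/- IR 1, Tet2-/- IR 3, WT IR 1, WT IR 2 or WT IR 3 and 3 without Tet2-/- IR 2, that of the thick ascending limb was 2 without Tet2-/- IR 2, and 1 in the other fits that left out 1 library, and that of the transcription factors was 0 without Tet2-/- IR 1, Tet2-/- IR 2, WT IR 1 or WT IR 3 and 1 without Tet2-/- IR 3, and 3 in the other fits that left out 1 library. In bulk tissue, fewer cells of a type and less RNA per cell cannot be told apart. When 1 library at a time was dropped, *Cldn10* and *Kl* both kept their calls. *Slc4a1* was not called without Tet2-/- IR 1 or 3 or WT IR 1, 2 or 3 (-3.80 to -2.28, p up to 0.132). *Klf15* lost its call without Tet2-/- IR 1 or 2 or WT IR 1 or 3 (-1.70 to -1.18, p up to 0.0972). *Emx1* was not called without Tet2-/- IR 1, 2 or 3 or WT IR 1 or 3 (-1.56 to -1.05, p up to 0.133).

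Among 45 genes of fatty acid oxidation and ketogenesis 10 were called lower (22.2% against 3.79% of all genes) and 1 higher (median -0.52, without an operation 0.16). The summed level overlapped, at 6857, 5558 and 6654 FPKM in the WT IR libraries and 6870.2, 3101 and 3798 FPKM in those labelled Tet2-/- IR, of which Tet2-/- IR 1 was the highest of all 6. *Acadm*, the medium-chain acyl-CoA dehydrogenase of mitochondria, had 508, 419 and 383 FPKM against 181, 120.0 and 113 FPKM (log2 fold change -1.75 ± 0.24, edgeR quasi-likelihood adjusted p = 0.0131). *Acox2*, the peroxisomal oxidase for branched chains and bile acid precursors, had 90.6, 42.2 and 36.5 FPKM against 7.11, 8.89 and 3.23 FPKM (log2 fold change -3.25 ± 0.46, edgeR quasi-likelihood adjusted p = 0.0137). *Bdh1*, which interconverts the ketone bodies, had 62.6, 38.5 and 31.8 FPKM against 23.1, 18.9 and 14.97 FPKM (log2 fold change -1.31 ± 0.26, edgeR quasi-likelihood adjusted p = 0.0293). The levels of all 3 enzymes were lower in every library labelled Tet2-/- IR than in any WT IR library. The single gene called higher was *Pdk4*, the kinase that shuts pyruvate dehydrogenase, at 4.25, 7.52 and 8.10 FPKM against 189, 22.7 and 41.6 FPKM (log2 fold change 3.57 ± 0.83, edgeR quasi-likelihood adjusted p = 0.0425), with most of the signal in Tet2-/- IR 1. *Cpt1a*, the entry enzyme of mitochondrial fatty acid oxidation, had 61.8, 70.1 and 69.9 FPKM against 103, 60.8 and 91.1 FPKM and overlapped (0.25). The list's lower count was 3 without WT IR 1 or WT IR 3, 4 without Tet2-/- IR 2 and 6 without Tet2-/- IR 3, and 9 to 10 in the other fits that left out 1 library. Over the 6 fits with 1 library removed, *Acadm* and *Acox2* both kept their calls. *Bdh1* lost its call without Tet2-/- IR 1, 2 or 3 or WT IR 1 or 3 (-1.48 to -1.003, p up to 0.0796). *Pdk4* was not called without Tet2-/- IR 1 or 3 or WT IR 1, 2 or 3 (2.20 to 4.04, p up to 0.139), nor with limma (pseudocount 1) or the replicate block.

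Mitochondrial respiration had no call but a shared sign. Of 77 oxidative phosphorylation genes 73 had negative log2 fold changes and 38 lay below in every library labelled Tet2-/- IR (49.4% against 18.5% of all genes), with a median of -0.47 that was 0.24 without an operation. By complex the medians ran from -0.39 for complex IV to -0.66 for complex II. *Ndufa1* of complex I had 157, 171 and 192 FPKM against 134, 137 and 180.4 FPKM (-0.30), with overlap. All 19 genes of the citric acid cycle were negative (median -0.48), with *Pdha1* at 144, 153 and 158 FPKM against 135, 112 and 117 FPKM (-0.42). No gene of either list passed the limits in the quasi-likelihood test, with DESeq2, with the exact test or with limma (41 of 77 and 12 of 19 had an unadjusted p under 0.05), so these are differences in sign and size, not calls. Mitochondrial ribosomal proteins had a median of -0.19, which became -0.09 with library totals.

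Glycolysis had 1 call among 20 genes, which became 2 with the replicate block and 4 with DESeq2, the exact test or all 12 libraries, and its median of -0.02 turned to 0.06 with library totals and 0.00 with upper quartile factors, and was positive without any 1 library other than Tet2-/- IR 1. The called member was *Slc16a1*, the lactate carrier MCT1, at 4.10, 8.05 and 5.90 FPKM against 23.2, 11.5 and 21.0 FPKM (log2 fold change 1.55 ± 0.35, edgeR quasi-likelihood adjusted p = 0.041). The glucose carrier *Slc2a1* had 24.3, 32.2 and 23.7 FPKM against 91.3, 48.4 and 39.0 FPKM without overlap and missed the limit (log2 fold change 1.06 ± 0.32, edgeR quasi-likelihood adjusted p = 0.0787). Gluconeogenesis and fructose use showed the lowest median of the 40 lists (-1.47), with 7 of 14 genes called lower (against 3.79% of all genes), 5 of them among the 8 for fructose, polyols and glycerol. *Slc2a5*, the fructose carrier GLUT5, had 31.4, 7.63 and 14.3 FPKM against 1.44, 2.19 and 2.18 FPKM (log2 fold change -3.29 ± 0.52, edgeR quasi-likelihood adjusted p = 0.0175). *Khk*, ketohexokinase, had 439.5, 152 and 248 FPKM against 103, 64.6 and 70.2 FPKM (log2 fold change -1.91 ± 0.41, edgeR quasi-likelihood adjusted p = 0.0353), and *Gk*, glycerol kinase, had 113, 63.4 and 84.9 FPKM against 15.2, 20.5 and 15.7 FPKM (log2 fold change -2.46 ± 0.25, edgeR quasi-likelihood adjusted p = 0.0104). *Fbp1*, fructose-bisphosphatase, had 419.5, 276 and 299.6 FPKM against 176, 108 and 168 FPKM (log2 fold change -1.22 ± 0.28, edgeR quasi-likelihood adjusted p = 0.0425). *Pck1*, the first committed enzyme of gluconeogenesis, had 1802, 1285 and 2282 FPKM against 1313, 510.2 and 742 FPKM, which overlapped (-1.17). The list count was 3 without Tet2-/- IR 1 or Tet2-/- IR 2 and 4 without WT IR 1 or WT IR 3, and 5 to 7 in the other fits that left out 1 library. With each library left out in turn, *Gk* kept its call. *Slc16a1* lost its call without Tet2-/- IR 1 or 3 or WT IR 1, 2 or 3 (1.33 to 1.83, p up to 0.121). *Slc2a5* was not called without Tet2-/- IR 1 or 2 (-3.67 to -2.65, p up to 0.0641). *Khk* lost its call without Tet2-/- IR 1, 2 or 3 or WT IR 1 or 3 (-2.23 to -1.47, p up to 0.0905). *Fbp1* was not called without any 1 library (-1.37 to -0.99, p up to 0.136).

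Of 55 cytochrome P450 genes, many of them detoxifying, 7 were called lower (12.7% against 3.79% of all genes) and 2 higher (3.64% against 2.14%). Of 48 conjugating enzymes 6 were called lower (12.5%) and 2 higher (4.17%; medians -0.59 and -0.62). *Cyp7b1*, an oxysterol hydroxylase, had 74.8, 38.8 and 35.8 FPKM against 8.84, 4.83 and 1.41 FPKM (log2 fold change -3.41 ± 0.64, edgeR quasi-likelihood adjusted p = 0.0249). *Ugt3a1* and *Ugt3a2*, sugar transferases, had 56.8, 44.4 and 54.7 FPKM against 18.5, 8.33 and 11.2 FPKM and 359, 309 and 332 FPKM against 174, 118 and 146 FPKM (-2.13 and -1.28), whereas *Ugt1a1* was not called (-0.62). Outside the lists, the flavin monooxygenase *Fmo1* had 211, 208 and 191 FPKM against 69.1, 81.7 and 66.7 FPKM (log2 fold change -1.59 ± 0.14, edgeR quasi-likelihood adjusted p = 0.0104). Both conjugating enzymes called higher were nearly absent from the controls: *Sult1e1*, the estrogen sulfotransferase, had 0.0120, 0.102 and 0.163 FPKM against 3.67, 1.23 and 5.66 FPKM, and *Gsta1*, a glutathione transferase under NRF2 control, had 4.10, 5.76 and 4.48 FPKM against 10.6, 34.9 and 26.5 FPKM. The controls held at most 0.043 and 0.315 FPKM of them. The P450 genes called higher were *Cyp3a13* and *Cyp4f18*, at 0.208, 0.306 and 0.245 FPKM against 0.684, 0.727 and 1.39 FPKM and 0.235, 0.157 and 0.102 FPKM against 0.743, 1.81 and 0.442 FPKM (1.82 and 2.45). *Cyp11a1*, first of the P450 list, did not pass the filter on low counts. The P450 count called lower was 2 without WT IR 1, 3 without Tet2-/- IR 2 or WT IR 3 and 4 without Tet2-/- IR 1, and 6 to 8 in the other fits that left out 1 library, and the count called higher was 0 without Tet2-/- IR 1, Tet2-/- IR 2, WT IR 1, WT IR 2 or WT IR 3 and 1 without Tet2-/- IR 3. With other tests the P450 count called lower was 11 with all 12 libraries and 14 with DESeq2 or the exact test. The conjugating count called lower was 2 without WT IR 1 or WT IR 3 and 3 without Tet2-/- IR 3, and 4 to 7 in the other fits that left out 1 library, and the count called higher was 0 without WT IR 1 or WT IR 3 and 1 without Tet2-/- IR 1, Tet2-/- IR 2 or Tet2-/- IR 3, and 2 in the other fits that left out 1 library. In the 6 fits that each dropped 1 library, *Fmo1* kept its call. *Cyp7b1* lost its call without Tet2-/- IR 2 or WT IR 1 or 3 (-4.13 to -2.98, p up to 0.0741). *Ugt3a1* was not called without Tet2-/- IR 3 or WT IR 1 (-2.51 to -1.87, p up to 0.0547). *Ugt3a2* lost its call without Tet2-/- IR 3 or WT IR 1 or 3 (-1.43 to -1.11, p up to 0.0743). *Sult1e1* was not called without Tet2-/- IR 1 or 3 or WT IR 1, 2 or 3 (4.57 to 5.88, p up to 0.0693). *Gsta1* lost its call without Tet2-/- IR 2 or 3 or WT IR 1 or 3 (1.93 to 2.58, p up to 0.0857). *Cyp3a13* was not called without any 1 library (1.34 to 2.01, p up to 0.146). *Cyp4f18* lost its call without Tet2-/- IR 1 or 2 or WT IR 1, 2 or 3 (1.78 to 2.77, p up to 0.13).

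In cholesterol synthesis 9 of 25 genes were called lower (36.0% against 3.79% of all genes) and none higher, 22 were negative and the median was -0.72 (without an operation -0.19). *Sqle*, squalene epoxidase, had 41.9, 44.4 and 30.8 FPKM against 16.3, 22.9 and 19.6 FPKM (log2 fold change -1.09 ± 0.16, edgeR quasi-likelihood adjusted p = 0.0147), and *Cyp51*, lanosterol demethylase, had 44.9, 23.4 and 17.5 FPKM against 7.04, 7.29 and 6.83 FPKM (log2 fold change -2.10 ± 0.31, edgeR quasi-likelihood adjusted p = 0.0159). Both were lower in every library labelled Tet2-/- IR than in any WT IR library. *Insig1*, the sterol sensor that SREBP2 induces, had 21.0, 19.2 and 10.3 FPKM against 5.95, 6.91 and 3.68 FPKM (-1.70), and *Hmgcs1*, an early synthase of the pathway, had 5.94, 6.76 and 8.56 FPKM against 2.88, 4.08 and 3.01 FPKM (-1.21). *Fads2*, the desaturase that makes polyunsaturated fatty acids, had 42.6, 34.0 and 25.9 FPKM against 9.23, 10.1 and 8.61 FPKM (log2 fold change -1.97 ± 0.16, edgeR quasi-likelihood adjusted p = 0.00904). No promoter of 24 read for this list held the sterol response element TCACNCCAC, which 1.18% of all promoters held. The list count was 3 without Tet2-/- IR 1 and 4 without WT IR 1, and 7 to 9 in the other fits that left out 1 library. When 1 library at a time was dropped, *Fads2* kept its call. *Sqle* was not called without Tet2-/- IR 1 or WT IR 1 (-1.19 to -0.97, p up to 0.0544). *Cyp51* lost its call without Tet2-/- IR 1 (-2.33 to -1.65, p up to 0.0569). *Insig1* was not called without Tet2-/- IR 1 or WT IR 1 (-1.93 to -1.52, p up to 0.0606). *Hmgcs1* lost its call without Tet2-/- IR 1 or 3 or WT IR 3 (-1.34 to -0.99, p up to 0.0749).

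Of 19 circadian clock genes 7 were called lower (36.8% against 3.79% of all genes) and none higher (2 with DESeq2 or the exact test), while the median was -0.01, with 9 members positive, and turned to 0.10 with library totals and 0.14 without Tet2-/- IR 2. The clock's output factors of the PAR bZIP family were called lower: *Hlf* had 18.7, 11.2 and 16.2 FPKM against 3.96, 3.86 and 2.54 FPKM (log2 fold change -2.27 ± 0.25, edgeR quasi-likelihood adjusted p = 0.0106), *Tef* 73.6, 47.3 and 60.2 FPKM against 20.9, 31.5 and 31.7 FPKM (log2 fold change -1.21 ± 0.25, edgeR quasi-likelihood adjusted p = 0.0316), and *Dbp* 50.02, 59.3 and 53.9 FPKM against 18.0, 37.2 and 22.04 FPKM (log2 fold change -1.20 ± 0.24, edgeR quasi-likelihood adjusted p = 0.0296). *Ciart*, a repressor of the clock, had 4.34, 4.26 and 4.13 FPKM against 1.29, 1.70 and 1.53 FPKM (log2 fold change -1.59 ± 0.23, edgeR quasi-likelihood adjusted p = 0.0141), and the period genes *Per2* and *Per3* had 11.6, 9.02 and 10.4 FPKM against 5.05, 5.70 and 2.80 FPKM and 7.46, 5.67 and 5.28 FPKM against 2.43, 4.07 and 1.86 FPKM (-1.32 and -1.25). In all 6 the libraries labelled Tet2-/- IR lay lowest, and the controls of the 2 genotypes overlapped in all but *Dbp*. The activator *Arntl* (Bmal1) had 0.913, 0.923 and 0.664 FPKM against 2.42, 1.13 and 2.39 FPKM and missed the limits (log2 fold change 1.18 ± 0.37, edgeR quasi-likelihood adjusted p = 0.0876), *Per1* had 0.57 and *Nr1d1* 0.08. The time of day at which tissue was taken is not given in the sources used here. The count called lower was 1 without WT IR 1, 2 without Tet2-/- IR 1 or WT IR 3 and 4 without Tet2-/- IR 3, and 5 to 6 in the other fits that left out 1 library. Over the 6 fits with 1 library removed, *Hlf* kept its call. *Tef* was not called without Tet2-/- IR 1 or 2 or WT IR 1 or 3 (-1.39 to -1.04, p up to 0.099). *Dbp* lost its call without Tet2-/- IR 1 or 3 or WT IR 1, 2 or 3 (-1.48 to -1.002, p up to 0.0775). *Ciart* was not called without WT IR 1 (-1.66 to -1.49, p up to 0.0539). *Per2* lost its call without Tet2-/- IR 1 or WT IR 1 or 3 (-1.46 to -1.10, p up to 0.0743). *Per3* was not called without Tet2-/- IR 1 or 3 or WT IR 1 or 3 (-1.56 to -1.08, p up to 0.0973).

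Promoters of 2 called clock genes are shown because they carry the letters through which the clock acts, the E-box CACGTG that BMAL1 and CLOCK bind (in capitals in *Ciart*) and the D-box TTATGNAA that PAR bZIP factors bind (in capitals in *Per3*), on mm9. Among the 19 clock genes 6 (31.6%) held the E-box against 9.35% of all promoters, and 3 (15.8%) the D-box against 2.11%; both shares include genes that were not called.
*Ciart*, chr3:95686102-95686401, minus strand: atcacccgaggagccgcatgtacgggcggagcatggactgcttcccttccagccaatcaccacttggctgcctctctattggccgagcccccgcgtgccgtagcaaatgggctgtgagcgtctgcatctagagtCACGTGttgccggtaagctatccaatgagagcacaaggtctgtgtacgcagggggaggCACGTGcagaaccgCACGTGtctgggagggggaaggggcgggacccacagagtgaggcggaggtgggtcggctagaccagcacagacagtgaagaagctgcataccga
*Per3*, chr4:150418725-150419024, minus strand: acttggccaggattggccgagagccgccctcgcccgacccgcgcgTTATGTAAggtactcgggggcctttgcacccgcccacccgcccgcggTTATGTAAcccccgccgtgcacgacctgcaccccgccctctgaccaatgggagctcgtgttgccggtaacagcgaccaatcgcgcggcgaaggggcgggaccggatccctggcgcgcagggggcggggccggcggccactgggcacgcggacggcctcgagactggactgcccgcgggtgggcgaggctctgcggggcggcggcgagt
*Ciart* held 3 E-boxes and *Per3* 2 D-boxes.

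Markers of tubular injury were higher in median (1.54 over 22 genes, without an operation -0.30), and 3 were called higher and none lower, against 2.14% of all genes on the higher side. *Cd44*, a hyaluronan receptor of injured tubules, had 0.403, 0.990 and 0.889 FPKM against 3.43, 6.65 and 3.68 FPKM (log2 fold change 2.46 ± 0.40, edgeR quasi-likelihood adjusted p = 0.0178). *Sprr2f*, a cornified envelope protein induced by kidney injury, had 0.452, 10.9 and 5.08 FPKM against 88.9, 184 and 93.1 FPKM (log2 fold change 4.36 ± 0.92, edgeR quasi-likelihood adjusted p = 0.0335). *Cdkn1a*, the cell cycle inhibitor p21, had 7.46, 20.4 and 24.7 FPKM against 101, 60.7 and 102 FPKM (log2 fold change 2.22 ± 0.49, edgeR quasi-likelihood adjusted p = 0.0373). In all 3 the groups did not overlap, and WT IR 1 was the lowest of the 6 libraries. The clinical markers were not called by the quasi-likelihood test. *Havcr1* (KIM-1) had 214, 559 and 670.5 FPKM against 652, 867 and 1432 FPKM, with overlap (log2 fold change 0.93 ± 0.51, edgeR quasi-likelihood adjusted p = 0.279), and *Lcn2* (NGAL), which neutrophils also make, had 74.2, 476 and 158 FPKM against 1923, 1849 and 908 FPKM without overlap and just missed the limit (log2 fold change 2.64 ± 0.66, edgeR quasi-likelihood adjusted p = 0.051), and it was called in 6 of the 11 other settings. *Krt20* had 26.6, 56.9 and 151 FPKM against 399, 261 and 436 FPKM and *Spp1*, osteopontin, 1163, 6394 and 4722 FPKM against 10675, 21437 and 8742 FPKM, neither called (2.09 and 1.60). The controls held at most 0.278, 0.685 and 14.2 FPKM of *Cd44*, *Sprr2f* and *Cdkn1a*, below every library labelled Tet2-/- IR. The list count was 1 without Tet2-/- IR 2 and 6 without WT IR 2, and 2 in the other fits that left out 1 library. It was 14 with DESeq2, 11 with edgeR's exact test, 12 in a fit of all 12 libraries, 8 with the replicate block and 7 and 6 with limma at a pseudocount of 1 and 0.1, so whether most of these markers were called depended on the test. With each library left out in turn, *Cd44* kept its call. *Sprr2f* lost its call without Tet2-/- IR 1, 2 or 3 or WT IR 3 (3.81 to 5.22, p up to 0.0999). *Cdkn1a* was not called without any 1 library (1.86 to 2.64, p up to 0.0993).

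Immediate early genes, transcribed within minutes of a stimulus, had positive values in 27 of 28 (median 1.09). Their summed level was 159.7, 324 and 271 FPKM in the WT IR libraries and 600.5, 547 and 510 FPKM in those labelled Tet2-/- IR, and the latter lay within the control range of 299 to 792 FPKM. In all, 18 genes lay above the WT IR libraries in every library labelled Tet2-/- IR (64.3% against 17.5% of all genes), but 2 passed the limits. *Klf4*, an epithelial transcription factor, had 2.06, 1.94 and 1.23 FPKM against 3.89, 5.95 and 5.89 FPKM (log2 fold change 1.51 ± 0.25, edgeR quasi-likelihood adjusted p = 0.018), and *Ier5* had 4.37, 5.66 and 4.66 FPKM against 10.4, 10.4 and 10.7 FPKM (log2 fold change 1.01 ± 0.14, edgeR quasi-likelihood adjusted p = 0.0129). *Fos* had 0.397, 3.92 and 3.99 FPKM against 5.41, 4.50 and 2.57 FPKM and *Jun* 6.45, 19.4 and 15.8 FPKM against 29.7, 30.6 and 21.5 FPKM (0.45 and 0.86); WT IR 1 was lowest in both, and without it *Fos* was at -0.0585. Among 25 p53 targets *Cdkn1a* alone was called (median 0.49, with a count of 2 with all 12 libraries and 4 with DESeq2 or the exact test), and *Trp53* had 0.43. No promoter of the 28 immediate early genes held the AP-1 site TGANTCA, against 5.30% of all. The immediate early count was 1 without Tet2-/- IR 3, WT IR 1 or WT IR 3 and 5 without WT IR 2, and 2 in the other fits that left out 1 library. With other tests it was 5 with limma (pseudocount 1) or library totals, 6 with all 12 libraries, 7 with limma (pseudocount 0.1) and 9 with DESeq2 or the exact test. *Klf4* lost its call without Tet2-/- IR 2 or WT IR 1 or 3 (1.35 to 1.68, p up to 0.0548). *Ier5* was not called without Tet2-/- IR 3 or WT IR 1 (0.92 to 1.07, p up to 0.0476).

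Metallothioneins led the genes called higher by the size of the difference in FPKM. *Mt1* had 233, 444 and 263 FPKM in the WT IR libraries and 1192, 1497 and 1183 FPKM in those labelled Tet2-/- (log2 fold change 1.95 ± 0.25, edgeR quasi-likelihood adjusted p = 0.0125). *Mt2* had 88.5, 283 and 155 FPKM against 1064, 1169 and 670.3 FPKM (log2 fold change 2.36 ± 0.42, edgeR quasi-likelihood adjusted p = 0.022), and *Mt3* had 0.851, 0.974 and 1.17 FPKM against 7.64, 9.70 and 2.92 FPKM (log2 fold change 2.61 ± 0.48, edgeR quasi-likelihood adjusted p = 0.0234). All 3, which bind zinc and copper and are induced by metals, glucocorticoids and oxidants, were above the WT IR range in every library labelled Tet2-/- IR, and their controls overlapped between genotypes (89.0 to 218 FPKM for *Mt1*). *Slc39a8*, a zinc importer, was the 1 gene of the list called lower, at 18.4, 11.8 and 9.90 FPKM against 4.44, 4.78 and 2.41 FPKM (log2 fold change -1.89 ± 0.29, edgeR quasi-likelihood adjusted p = 0.0164). Of 14 genes for iron transport and release no other was called, and the heme oxygenase *Hmox1* had 28.5, 158 and 70.4 FPKM against 662, 329 and 197 FPKM (log2 fold change 2.12 ± 0.67, edgeR quasi-likelihood adjusted p = 0.0894). The count called higher, 3 of 24 (12.5% against 2.14% of all genes), was 1 without Tet2-/- IR 1, Tet2-/- IR 2 or WT IR 3, and 2 to 3 in the other fits that left out 1 library. It was 6 with DESeq2 or all 12 libraries and 7 with the exact test. In the 6 fits that each dropped 1 library, *Mt1* and *Slc39a8* both kept their calls. *Mt2* lost its call without Tet2-/- IR 1 or 2 or WT IR 3 (2.03 to 2.81, p up to 0.0715). *Mt3* was not called without Tet2-/- IR 1 or 2 or WT IR 1, 2 or 3 (2.32 to 2.94, p up to 0.0848).

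The promoters of *Mt1* and *Mt2* are shown because metallothioneins are the textbook targets of the metal response element, whose core was searched as TGCACNC or TGCGCNC (capitals, either strand, mm9). The core is short, and 35.0% of all promoters held it.
*Mt1*, chr8:96702739-96703038, plus strand: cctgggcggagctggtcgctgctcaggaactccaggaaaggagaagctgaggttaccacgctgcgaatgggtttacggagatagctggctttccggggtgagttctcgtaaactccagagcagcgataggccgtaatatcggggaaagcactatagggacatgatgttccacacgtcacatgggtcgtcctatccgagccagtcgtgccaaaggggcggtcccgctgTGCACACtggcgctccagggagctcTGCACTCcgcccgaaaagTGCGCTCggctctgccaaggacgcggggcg
*Mt2*, chr8:96696268-96696567, plus strand: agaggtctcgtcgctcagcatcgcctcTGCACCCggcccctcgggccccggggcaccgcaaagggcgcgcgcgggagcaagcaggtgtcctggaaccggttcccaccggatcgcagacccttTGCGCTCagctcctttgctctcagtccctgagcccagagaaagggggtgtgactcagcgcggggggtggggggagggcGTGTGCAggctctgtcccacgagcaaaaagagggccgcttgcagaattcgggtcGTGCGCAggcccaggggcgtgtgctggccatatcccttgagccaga
*Mt1* held the core 3 times and *Mt2* 4 times in this window, and *Mt3* once.

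**Figure D3:**
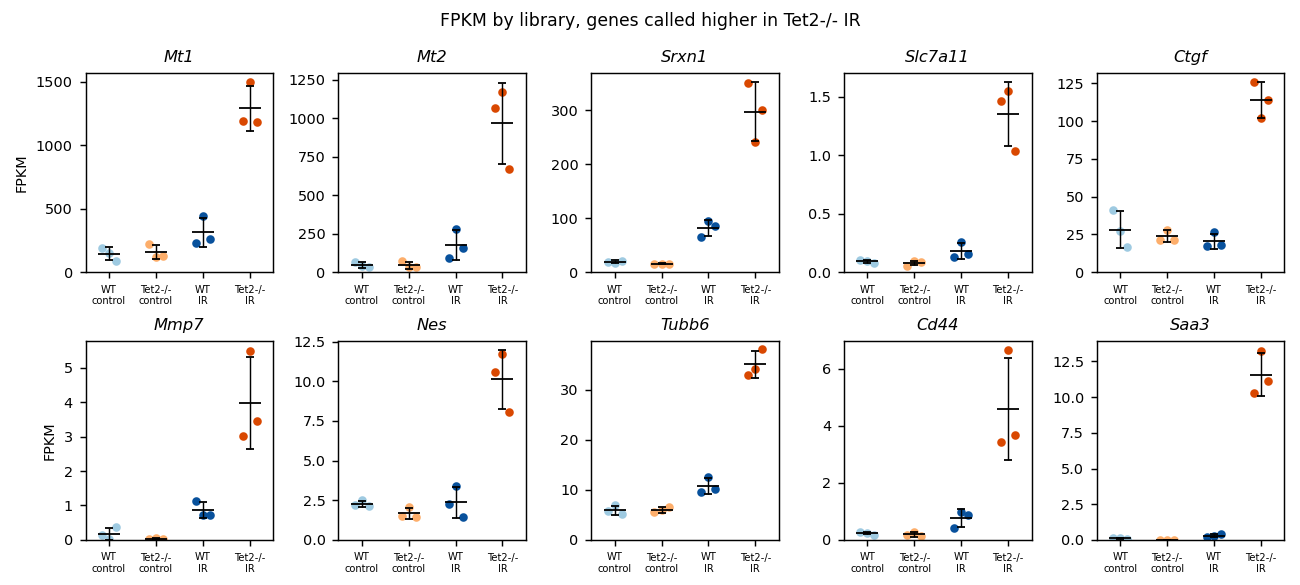
FPKM of 10 genes called higher, by library in the 4 groups; points are libraries, the bar is the mean and the whiskers the SD of 3. In each panel the 3 libraries labelled Tet2-/- IR lie above the 3 WT IR libraries, for example 1183 to 1497 against 233 to 444 FPKM for *Mt1*.

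Of 26 NRF2 targets, the antioxidant genes, 2 were called higher (7.69% against 2.14% of all genes). *Srxn1*, sulfiredoxin, had 65.7, 95.1 and 85.8 FPKM against 349.8, 241 and 301 FPKM (log2 fold change 1.76 ± 0.25, edgeR quasi-likelihood adjusted p = 0.0137), and *Slc7a11*, the cystine importer xCT, had 0.131, 0.258 and 0.157 FPKM against 1.47, 1.54 and 1.04 FPKM (log2 fold change 2.79 ± 0.30, edgeR quasi-likelihood adjusted p = 0.0104). The log2 fold change was positive for 19 of the 26 (median 0.26), and *Nqo1* (-0.23), *Gclm* (-0.55) and *Nfe2l2* itself (0.34) were not called. The unfolded protein list had 2 higher and 3 lower calls (2.14% and 3.79% of all genes were called in these directions), and its branches had medians of opposite sign. The 20 genes of the ER branch, chaperones and others, had a median of -0.63 (-0.70 to -0.58 without 1 library). Of these *Sdf2l1* (-1.11) and *Herpud1* (115, 87.5 and 104 FPKM against 32.7, 53.02 and 50.8 FPKM, -1.27) were called lower. The chaperone *Hspa5* (BiP) had 241, 256 and 255 FPKM against 154, 147 and 110.2 FPKM, just short of the fold limit (log2 fold change -0.98 ± 0.18, edgeR quasi-likelihood adjusted p = 0.0236). The 20 ATF4 targets had a median of 0.71 (0.61 to 0.96), with *Slc7a11* and the phosphatase subunit *Ppp1r15a* (5.80, 7.12 and 6.43 FPKM against 21.7, 10.5 and 15.2 FPKM, 1.21) called higher and the mitochondrial serine enzyme *Shmt2* (128, 73.7 and 97.2 FPKM against 37.9, 43.5 and 41.4 FPKM, -1.38) called lower. Among 30 heat shock genes only *Hspb8*, a partner of selective autophagy, was called by the quasi-likelihood test (3.24, 4.23 and 2.63 FPKM against 6.40, 11.6 and 11.4 FPKM, 1.45). The heat shock count called higher was 2 with DESeq2, the exact test or limma (pseudocount 0.1). *Hspa1a* had 0.40 with overlap, and the list median of -0.04 turned to 0.06 with library totals. The unfolded protein count called higher was 1 without Tet2-/- IR 1, Tet2-/- IR 3, WT IR 1 or WT IR 3 and 5 without WT IR 2, and 2 in the other fits that left out 1 library. The count called lower was 0 without Tet2-/- IR 1, WT IR 1 or WT IR 3, 1 without Tet2-/- IR 2 and 7 without WT IR 2, and 3 in the other fits that left out 1 library. With other tests the higher count was 1 with the replicate block, 4 with all 12 libraries and 5 with DESeq2 or the exact test. The NRF2 count was 1 without WT IR 1, and 2 in the other fits that left out 1 library. When 1 library at a time was dropped, *Slc7a11* kept its call. *Srxn1* lost its call without WT IR 1 (1.61 to 1.93, p up to 0.0511). *Sdf2l1* was not called without Tet2-/- IR 1 or 3 or WT IR 1 or 3 (-1.37 to -0.99, p up to 0.107). *Herpud1* lost its call without Tet2-/- IR 1 or 2 or WT IR 1 or 3 (-1.42 to -1.08, p up to 0.0736). *Ppp1r15a* was not called without Tet2-/- IR 1 or 3 or WT IR 1, 2 or 3 (0.91 to 1.46, p up to 0.146). *Shmt2* lost its call without Tet2-/- IR 1 or 2 or WT IR 1 or 3 (-1.59 to -1.19, p up to 0.0668). *Hspb8* was not called without Tet2-/- IR 2 or 3 or WT IR 1 or 3 (1.26 to 1.68, p up to 0.0887).

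In pericellular proteolysis 7 of 37 genes were called higher (18.9% against 2.14% of all genes) and 1 lower (median 1.04, without an operation 0.07). The matrix metalloproteinase *Mmp7*, a product of injured tubules, had 1.14, 0.716 and 0.732 FPKM against 3.01, 5.504 and 3.44 FPKM (log2 fold change 2.10 ± 0.36, edgeR quasi-likelihood adjusted p = 0.0205), and *Mmp10*, stromelysin 2, had 0.0250, 0.0130 and 0.129 FPKM against 1.81, 0.970 and 1.23 FPKM (log2 fold change 4.39 ± 0.86, edgeR quasi-likelihood adjusted p = 0.0282). *Mmp19* had 1.38, 1.18 and 1.03 FPKM against 2.91, 3.87 and 2.53 FPKM (1.27). *Mmp8* (4.87) and *Mmp9* (4.10) are stored in neutrophil granules, and both are also in the neutrophil list. The urokinase *Plau* had 236, 342 and 266 FPKM against 568, 443 and 292 FPKM, with overlap (0.52), and its receptor *Plaur* 4.93, 23.7 and 11.5 FPKM against 61.4, 39.7 and 42.0 FPKM without overlap, not called (log2 fold change 1.76 ± 0.51, edgeR quasi-likelihood adjusted p = 0.0748). *Serpinf2*, the plasmin inhibitor alpha-2-antiplasmin, was called lower at 99.3, 85.1 and 74.9 FPKM against 32.7, 26.6 and 28.2 FPKM (log2 fold change -1.66 ± 0.16, edgeR quasi-likelihood adjusted p = 0.0104). The higher count was 2 without Tet2-/- IR 2 or WT IR 1 and 3 without Tet2-/- IR 1 or WT IR 3, and 5 to 7 in the other fits that left out 1 library. With other tests it was 11 with the replicate block, 12 with all 12 libraries, 13 with the exact test and 16 with DESeq2. Over the 6 fits with 1 library removed, *Mmp8* and *Serpinf2* both kept their calls. *Mmp7* lost its call without Tet2-/- IR 2 or WT IR 1 or 3 (1.86 to 2.32, p up to 0.0647). *Mmp9* was not called without Tet2-/- IR 1 or 2 or WT IR 1 or 3 (3.52 to 4.74, p up to 0.0843). *Mmp10* lost its call without Tet2-/- IR 1, 2 or 3 or WT IR 1 (3.87 to 6.06, p up to 0.0913). *Mmp19* was not called without Tet2-/- IR 1 or WT IR 1 or 3 (1.14 to 1.36, p up to 0.0568).

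The promoters of *Mmp10* and *Mmp7* are shown because 9 of 37 genes of this list (24.3%) held the AP-1 site TGANTCA against 5.30% of all promoters; AP-1 is the dimer of FOS and JUN proteins that drives many of these proteases. Capitals mark TGANTCA, on mm9.
*Mmp10*, chr9:7502092-7502391, plus strand: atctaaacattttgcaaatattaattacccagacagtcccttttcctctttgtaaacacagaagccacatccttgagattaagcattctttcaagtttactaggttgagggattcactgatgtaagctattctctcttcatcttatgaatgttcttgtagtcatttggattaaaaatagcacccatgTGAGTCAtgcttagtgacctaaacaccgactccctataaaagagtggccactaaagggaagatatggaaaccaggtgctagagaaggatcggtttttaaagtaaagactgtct
*Mmp7*, chr9:7691861-7692160, plus strand: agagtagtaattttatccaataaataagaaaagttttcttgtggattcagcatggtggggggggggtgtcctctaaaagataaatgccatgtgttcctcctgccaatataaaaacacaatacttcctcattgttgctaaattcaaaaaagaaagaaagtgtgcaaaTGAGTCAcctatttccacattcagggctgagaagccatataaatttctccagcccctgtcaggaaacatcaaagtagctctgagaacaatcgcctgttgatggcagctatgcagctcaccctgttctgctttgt
The site began at -63 in *Mmp10* and at -84 in *Mmp7*, counted from the start. The other holders were *Plaur*, *Mmp3*, *Mmp9*, *Mmp12*, *Mmp13*, *Mmp19* and *Adam19*, called and uncalled genes alike.

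Matrix and cytoskeletal genes rose for a few members. In the collagen and matrix list 3 of 64 genes were called higher (4.69% against 2.14% of all genes), all glycoproteins or enzymes. The 3 called lower (4.69% against 3.79% of all genes) were the collagens *Col19a1*, *Col23a1* and *Col6a6*, each under 2 FPKM in every IR library (-3.55, -2.61 and -2.86). The lower count was 0 with limma (pseudocount 1) or a mean of at least 1 FPKM, and the higher count was 6 with the exact test or all 12 libraries and 7 with DESeq2. The median of 0.04 turned to -0.37 without Tet2-/- IR 2 and -0.14 without WT IR 3. *Ctgf*, a YAP and TGF-beta target, had 17.5, 26.3 and 17.8 FPKM against 126, 102 and 114 FPKM (log2 fold change 2.39 ± 0.20, edgeR quasi-likelihood adjusted p = 0.0103). *Tnc*, tenascin C, had 0.803, 1.80 and 0.308 FPKM against 9.15, 9.14 and 3.04 FPKM (2.80), and *Lox*, lysyl oxidase, 0.586, 0.612 and 0.220 FPKM against 1.93, 2.10 and 1.82 FPKM (1.98). *Col10a1*, first of the list, did not pass the filter on low counts. Keratin and actin genes had 49 of 54 positive values (median 0.66), with 30 above in every library labelled Tet2-/- IR (55.6% against 17.5% of all genes). Of the 54, 4 were called higher (7.41% against 2.14% of all genes). *Nes*, the intermediate filament nestin, had 2.25, 3.39 and 1.44 FPKM against 10.6, 11.7 and 8.07 FPKM (log2 fold change 2.02 ± 0.26, edgeR quasi-likelihood adjusted p = 0.0126). *Tpm4*, a tropomyosin, had 37.9, 66.9 and 63.0 FPKM against 145, 142 and 159.9 FPKM, *Msn*, moesin, 34.5, 63.5 and 42.8 FPKM against 122, 119 and 126 FPKM, and *Pdlim7* 3.04, 7.35 and 3.401 FPKM against 16.6, 21.3 and 19.4 FPKM (1.31, 1.30 and 1.97). *Krt7* was not called (0.52). Outside the list, the beta-tubulin *Tubb6* had 9.59, 12.6 and 10.2 FPKM against 32.9, 34.1 and 38.0 FPKM (log2 fold change 1.61 ± 0.15, edgeR quasi-likelihood adjusted p = 0.0104). The higher count of the keratin and actin list was 1 without WT IR 1 and 2 without Tet2-/- IR 1 or Tet2-/- IR 3, and 3 to 6 in the other fits that left out 1 library, and that of the matrix list 1 without Tet2-/- IR 1, Tet2-/- IR 2 or WT IR 1 and 5 without WT IR 2, and 2 in the other fits that left out 1 library. With other tests the keratin and actin count was 7 with library totals, 8 with limma (pseudocount 1), 9 with limma (pseudocount 0.1), 12 with the replicate block, 13 with all 12 libraries, 14 with the exact test and 16 with DESeq2. With each library left out in turn, *Ctgf*, *Col19a1*, *Col6a6*, *Nes* and *Tubb6* all kept their calls. *Tnc* lost its call without Tet2-/- IR 1, 2 or 3 or WT IR 1 or 3 (2.38 to 3.55, p up to 0.138). *Lox* was not called without Tet2-/- IR 1, 2 or 3 or WT IR 1 (1.65 to 2.17, p up to 0.0686). *Col23a1* lost its call without Tet2-/- IR 1, 2 or 3 or WT IR 1 (-2.89 to -1.93, p up to 0.0901). *Tpm4* was not called without any 1 library (1.09 to 1.47, p up to 0.076). *Msn* lost its call without Tet2-/- IR 1 or 3 or WT IR 1 or 3 (1.11 to 1.51, p up to 0.0828). *Pdlim7* was not called without WT IR 1 or 3 (1.74 to 2.42, p up to 0.0568).

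Signals to other cells changed in single genes. Of 45 growth factor genes 1 was called lower and 1 higher, against 3.79% and 2.14% of all genes. *Ghr*, the growth hormone receptor, was called lower at 207, 155 and 151 FPKM against 53.5, 56.0 and 54.1 FPKM (log2 fold change -1.74 ± 0.18, edgeR quasi-likelihood adjusted p = 0.0104). *Ereg*, an EGF-family ligand, was called higher at a trace level (0.0140, 0.0180 and 0.006 FPKM against 0.205, 0.126 and 0.0540 FPKM), while *Egf* of the distal nephron had 101, 62.4 and 56.4 FPKM against 26.4, 13.2 and 2.82 FPKM without overlap and missed the limit (log2 fold change -2.48 ± 0.70, edgeR quasi-likelihood adjusted p = 0.071). The higher count of this list was 0 without Tet2-/- IR 1, Tet2-/- IR 2, WT IR 1 or WT IR 3 and 3 without Tet2-/- IR 3 or WT IR 2, and with other tests 0 with limma (pseudocount 1) or a mean of at least 1 FPKM, 4 with the replicate block, 6 with the exact test or all 12 libraries and 7 with DESeq2. Its lower count was 2 without Tet2-/- IR 3 and 4 without WT IR 2, and 1 in the other fits that left out 1 library, and with other tests 2 with all 12 libraries or the replicate block and 3 with DESeq2 or the exact test. Of 24 angiogenic genes 2 were called higher (8.33% against 2.14% of all genes). They were the vasoconstrictor *Edn1* (0.659, 1.72 and 0.507 FPKM against 6.23, 4.33 and 3.96 FPKM, 2.27) and the vasodilator *Adm* (5.69, 10.99 and 9.62 FPKM against 38.8, 19.3 and 23.5 FPKM, 1.54). *Vegfa* was under the fold limit (log2 fold change -0.73 ± 0.15, edgeR quasi-likelihood adjusted p = 0.033). None of 40 interferon-stimulated genes was called (median 0.42, *Ifit1* 0.63), with 7 above in every library (17.5%, as for all genes). At an unadjusted p under 0.05 10 of them passed, and DESeq2, edgeR's exact test and a fit of all 12 libraries called 3, 3 and 5 higher. Of 43 complement and coagulation genes 4 were called higher (9.30% against 2.14% of all genes) and 6 lower, against 3.79%. *C3*, the central complement protein, at 1.59 to 3.54 FPKM in the controls, had 27.5, 45.4 and 39.6 FPKM against 8.99, 15.8 and 11.9 FPKM (log2 fold change -1.73 ± 0.26, edgeR quasi-likelihood adjusted p = 0.0162), and *C8a* had 10.9, 4.04 and 3.44 FPKM against 0.963, 0.386 and 0.261 FPKM (-3.59), whereas *Procr*, the endothelial protein C receptor, had 3.30, 3.90 and 2.36 FPKM against 7.73, 9.91 and 12.5 FPKM (1.58), *Pros1*, protein S, 4.94, 5.77 and 4.07 FPKM against 11.1, 15.3 and 9.21 FPKM (1.17), and *F13a1*, a product of macrophages and platelets, 0.151, 0.233 and 0.0610 FPKM against 0.880, 3.82 and 0.769 FPKM (3.51). *C1qa* overlapped (0.55). Of 23 arginine and polyamine genes 2 were called higher and 2 lower, against 2.14% and 3.79% of all genes. *Smox*, spermine oxidase, was called higher at 2.44, 5.93 and 4.91 FPKM against 18.2, 15.7 and 18.5 FPKM (1.88), while *Gamt*, the last enzyme of creatine synthesis, was called lower at 39.6, 10.8 and 16.0 FPKM against 3.64, 4.77 and 3.04 FPKM (-2.64) and *Agmat* at -1.93. The arginine and polyamine count called higher was 0 without WT IR 3 and 1 without Tet2-/- IR 1, Tet2-/- IR 3, WT IR 1 or WT IR 2, and 2 in the other fits that left out 1 library, and the count called lower was 0 without Tet2-/- IR 1 or WT IR 3 and 1 without Tet2-/- IR 2, Tet2-/- IR 3 or WT IR 1, and 2 in the other fits that left out 1 library. The angiogenic count was 0 without Tet2-/- IR 1, Tet2-/- IR 3, WT IR 1 or WT IR 3 and 1 without WT IR 2, and 2 in the other fits that left out 1 library. With other tests it was 4 with DESeq2, the exact test, all 12 libraries or limma (pseudocount 0.1). In the 6 fits that each dropped 1 library, *Ghr* and *C3* both kept their calls. *Ereg* lost its call without Tet2-/- IR 1 or 2 or WT IR 1, 2 or 3 (2.73 to 3.596, p up to 0.1). *Edn1* was not called without Tet2-/- IR 1, 2 or 3 or WT IR 1 or 3 (1.99 to 2.92, p up to 0.103). *Adm* lost its call without Tet2-/- IR 1 or 3 or WT IR 1, 2 or 3 (1.19 to 1.77, p up to 0.11). *C8a* was not called without Tet2-/- IR 2 or 3 or WT IR 1 (-4.33 to -2.91, p up to 0.0641). *Procr* lost its call without WT IR 1 or 3 (1.32 to 1.74, p up to 0.0678). *Pros1* was not called without WT IR 1 (1.01 to 1.27, p up to 0.0547). *F13a1* lost its call without Tet2-/- IR 1 or 2 or WT IR 1, 2 or 3 (2.47 to 3.96, p up to 0.114). *Smox* was not called without Tet2-/- IR 1 or 3 or WT IR 3 (1.59 to 2.08, p up to 0.0652). *Gamt* lost its call without Tet2-/- IR 1, 2 or 3 or WT IR 3 (-2.99 to -1.96, p up to 0.0797). *Agmat* was not called without Tet2-/- IR 1 or WT IR 1 or 3 (-2.08 to -1.80, p up to 0.0649). The complement and coagulation count called lower was 2 without WT IR 1 and 3 without Tet2-/- IR 1, and 4 to 6 in the other fits that left out 1 library, and the count called higher was 0 without WT IR 1, 1 without WT IR 3 and 2 without WT IR 2, and 3 to 4 in the other fits that left out 1 library. With other tests the higher count was 2 with limma (pseudocount 1), 7 with the exact test and 8 with DESeq2.

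Growth machinery had hardly a call. Ribosome biogenesis genes were positive in 46 of 49 and above in every library labelled Tet2-/- IR in 32 (65.3% against 17.5% of all genes), with a median of 0.40, against 0.09 without an operation. *Ncl*, nucleolin, had 24.4, 33.5 and 30.2 FPKM against 52.8, 43.5 and 43.5 FPKM and did not pass (log2 fold change 0.57 ± 0.19, edgeR quasi-likelihood adjusted p = 0.107). Cytosolic ribosomal proteins were positive in 76 of 84 (median 0.32, without an operation 0.19, *Rpl10* 0.52), and mitochondrial ones negative in 64 of 77 (*Mrpl1* -0.43). By the quasi-likelihood test neither list had a call apart from *Rpl34*, near *Tet2*. DESeq2 and the exact test each called 2 cytosolic ribosomal protein genes higher. No gene was called among 20 aminoacyl-tRNA synthetases (*Aars* 0.19) or 38 proteasome genes (*Psma1* -0.01), nor among those of ribosome biogenesis. DESeq2, the exact test and limma called none of these 3 lists or of the mitochondrial ribosomal proteins either, and 4, 0, 26 and 14 members had an unadjusted p under 0.05. Of 63 cell cycle genes only *Cdkn1a* was called (1.59% higher, against 2.14% of all genes). The median of 0.07 turned to -0.29 without Tet2-/- IR 2, -0.04 without WT IR 1 and -0.02 without WT IR 3, and *Ccnd1* had 0.40. Of 44 lysosome and autophagy genes 1 was called higher and 1 lower. The lysosomal protease *Ctsd* was called higher at 310.1, 555 and 402 FPKM against 1199, 1298 and 744 FPKM (log2 fold change 1.25 ± 0.29, edgeR quasi-likelihood adjusted p = 0.0424), and *Ctsa* had -0.23. *Ctsd* lost its call without Tet2-/- IR 1 or 2 or WT IR 1, 2 or 3 (1.05 to 1.43, p up to 0.128).

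Further genes came from the rank of the whole table, as the best supported calls at a mean of 10 FPKM or more. *Saa3*, an acute phase protein of injured epithelium and macrophages, had 0.219, 0.242 and 0.400 FPKM against 10.3, 13.3 and 11.2 FPKM (log2 fold change 5.22 ± 0.38, edgeR quasi-likelihood adjusted p = 0.00854). *Serpina3n*, a protease inhibitor of the acute phase, had 7.38, 9.39 and 2.86 FPKM against 50.6, 51.1 and 43.1 FPKM (log2 fold change 2.82 ± 0.36, edgeR quasi-likelihood adjusted p = 0.0123). *Ercc1*, of nucleotide excision repair, had 7.74, 10.6 and 8.45 FPKM against 26.3, 23.3 and 26.8 FPKM, and *Ccdc85b* 5.52, 6.83 and 6.85 FPKM against 18.6, 17.8 and 18.7 FPKM (1.42 and 1.42). On the lower side, *Thnsl2*, a threonine synthase-like protein, had 131, 85.1 and 92.4 FPKM against 20.04, 21.6 and 18.4 FPKM (log2 fold change -2.46 ± 0.19, edgeR quasi-likelihood adjusted p = 0.00904), and *Pecr*, a peroxisomal enoyl-CoA reductase, had 245, 156 and 148 FPKM against 43.6, 41.3 and 33.6 FPKM (log2 fold change -2.31 ± 0.22, edgeR quasi-likelihood adjusted p = 0.0104). *Susd3* (-2.05) and *Gm4477* (-2.28) ranked with them. By the size of the difference in FPKM the lower genes were *Napsa*, the aspartic protease napsin A, at 2390.4, 1156 and 1237 FPKM against 580.2, 386 and 349 FPKM, *Keg1* at 1065, 1211 and 1177 FPKM against 210.0, 464 and 150.0 FPKM, and *Acy3*, an aminoacylase, at 1612, 1646 and 1273 FPKM against 865, 588 and 492 FPKM (-1.95, -2.20 and -1.31). All of these genes kept the 2 IR groups apart. When 1 library at a time was dropped, *Saa3*, *Serpina3n*, *Ercc1*, *Ccdc85b*, *Thnsl2*, *Pecr*, *Susd3* and *Gm4477* all kept their calls. *Napsa* was not called without Tet2-/- IR 1, 2 or 3 or WT IR 1 or 3 (-2.21 to -1.57, p up to 0.0667). *Keg1* lost its call without Tet2-/- IR 1 or WT IR 1 or 3 (-2.73 to -1.95, p up to 0.0769). *Acy3* was not called without Tet2-/- IR 2 or 3 or WT IR 1, 2 or 3 (-1.58 to -1.18, p up to 0.0914).

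The smallest p-values of the comparison belonged to 2 overlapping annotations on chromosome 3 that differed by genotype without an operation too. *Rpl34* (chr3:130429745-130433255, minus strand, mm9) had 4.10, 4.18 and 4.71 FPKM in the WT IR libraries and 87.4, 116 and 133 FPKM in those labelled Tet2-/- IR (log2 fold change 4.59 ± 0.23, edgeR quasi-likelihood adjusted p = 0.00159), and *Rpl34-ps1* (chr3:130429755-130433247) had 2.499, 2.97 and 2.71 FPKM against 126, 169 and 194 FPKM (log2 fold change 5.81 ± 0.24, edgeR quasi-likelihood adjusted p = 0.000719). Their controls differed by log2 fold changes of 4.77 and 5.85, and they were the 2 genes called there. The annotations overlap, 2.77 Mb from the start of *Tet2*, and ribosomal protein genes have near-identical copies elsewhere, so the gene that the reads came from is uncertain. Within 10 Mb of *Tet2*, 9 of 83 tested genes were called (10.8% against 5.93% of all genes), 6 of 57 within 5 Mb (10.5%) and 9 of 173 within 20 Mb (5.20%). The other 7 were *Camk2d*, a calmodulin kinase, higher (1.65), and *Adh7*, *Bdh2*, *Ccbl2*, *Papss1*, *Slc39a8* and *Ugt8a*, lower (-1.85, -1.29, -2.35, -1.06, -1.89 and -1.23), and none of these was called without an operation. Over the 6 fits with 1 library removed, *Rpl34*, *Rpl34-ps1* and *Ccbl2* all kept their calls. *Camk2d* lost its call without Tet2-/- IR 1 or 3 or WT IR 1 or 3 (1.37 to 1.87, p up to 0.0764). *Adh7* was not called without Tet2-/- IR 1 or WT IR 1 (-2.05 to -1.62, p up to 0.0628). *Bdh2* lost its call without Tet2-/- IR 1 or 2 or WT IR 1 or 3 (-1.59 to -1.15, p up to 0.119). *Papss1* was not called without Tet2-/- IR 3 (-1.20 to -0.98, p up to 0.0478). *Ugt8a* lost its call without Tet2-/- IR 2 or WT IR 3 (-1.39 to -1.09, p up to 0.0522).

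Genes of other cell types moved with these results. The summed level of 16 neutrophil genes was 78.9, 487 and 165 FPKM in the WT IR libraries and 2067, 1989 and 991 FPKM in those labelled Tet2-/- IR, against 3.79 to 6.95 FPKM in the controls, and 12 of the 16 were called higher (against 2.14% of all genes). Of 18 macrophage genes 3 were called higher (16.7% against 2.14% of all genes), *Cd14*, *Itgam* and *Chil3*, and the other 15, *C1qa* among them, were not called. The list had sums of 64.4, 54.9 and 33.2 FPKM against 115, 274 and 70.0 FPKM. Podocyte and mesangial genes (0 of 14 called, median 1.53) summed to 75.7, 60.5 and 12.9 FPKM against 174, 157 and 151 FPKM, no overlap, and endothelial genes (0 of 15 called) to 166, 108 and 29.9 FPKM against 167, 235 and 100.5 FPKM, with overlap. Lymphocyte genes summed to at most 3.55 FPKM in any IR library, and fibroblast (0 of 12), adipocyte (0 of 8), adrenal (0 of 4) and muscle (0 of 6) genes had no calls, red cell genes 1 of 6 (*Slc4a1*). Of genes that differ between male and female kidneys, 5 of 14 male-high and 6 of 12 female-high ones were called lower (against 3.79% of all genes), several of them members of the transport lists as well. The male-high count was 3 without Tet2-/- IR 2, WT IR 1 or WT IR 3, and 4 to 6 in the other fits that left out 1 library, and the female-high count was 1 without Tet2-/- IR 2, WT IR 1 or WT IR 3 and 2 without Tet2-/- IR 1, and 5 in the other fits that left out 1 library. The gene *Ctsg* of the neutrophil list was at 0 in all 6 IR libraries. Of the lists without a call, DESeq2 and the exact test called 4 and 3 podocyte and mesangial genes and 2 endothelial genes each higher, and the unadjusted p was under 0.05 for 6 of 14 and 2 of 15. For fibroblast, adipocyte, adrenal and muscle genes DESeq2 called 0, 3, 0 and 1, the exact test 1, 3, 1 and 1, and 1, 4, 1 and 2 had an unadjusted p under 0.05. The neutrophil count was 7 without WT IR 1, and 9 to 11 in the other fits that left out 1 library, and the macrophage count was 0 without WT IR 1 and 1 without Tet2-/- IR 1, Tet2-/- IR 2 or WT IR 3, and 2 in the other fits that left out 1 library. With other tests the macrophage count was 5 with the exact test or all 12 libraries and 6 with DESeq2. The part of other cell types in the results above was not tested. *Cd14* was not called without Tet2-/- IR 1, 2 or 3 or WT IR 1 or 3 (1.79 to 2.68, p up to 0.099). *Itgam* lost its call without Tet2-/- IR 1 or 2 or WT IR 1, 2 or 3 (2.44 to 3.31, p up to 0.111). *Chil3* was not called without WT IR 1 (4.61 to 6.30, p up to 0.0562).

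**Figure D4:**
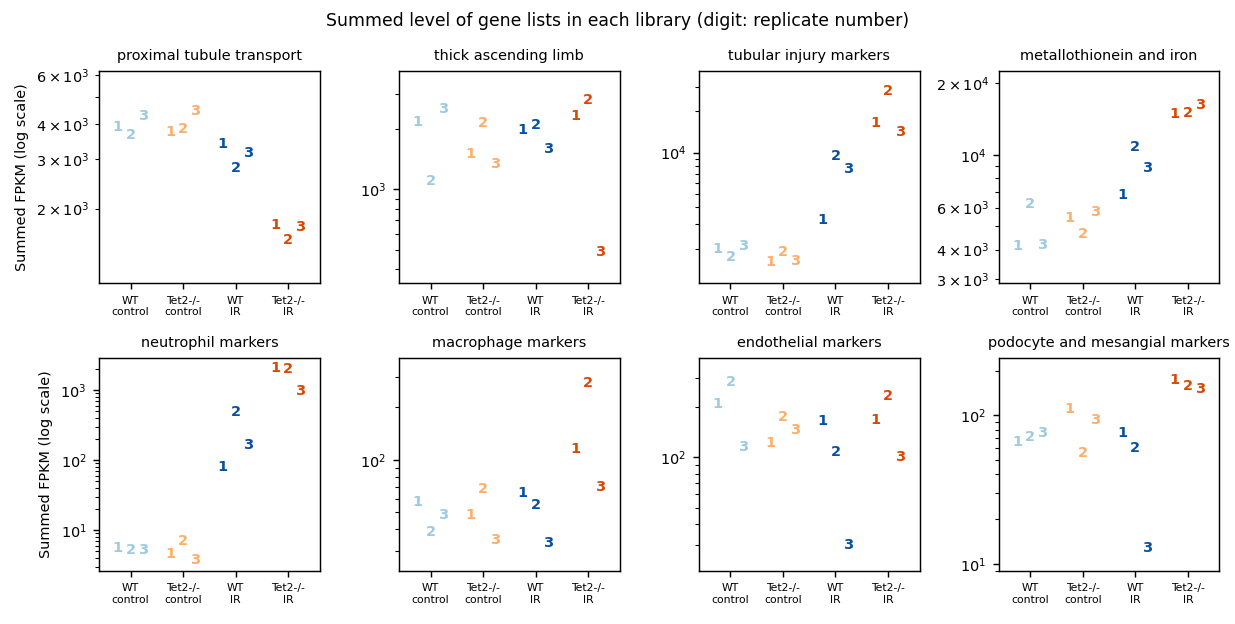
Summed FPKM of 8 gene lists in each library on a log scale, with the digit giving the replicate number within its group. Proximal tubule transport and injury sums separate the 2 IR groups, Tet2-/- IR 3 alone is low for the thick ascending limb (486 FPKM), and WT IR 3 alone is low for podocyte and mesangial genes (12.9 FPKM). *Lcn2* makes up most of the neutrophil sum in each IR library, and *Umod* most of the thick ascending limb sum in the libraries labelled Tet2-/- IR.

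The genotype difference after IR was set against the one without an operation by an interaction term over all 12 libraries. Of 16741 genes 1519 (9.07%) passed at an adjusted p under 0.05, and 660 of the 960 genes called after IR (68.8%) did. Those 960 were chosen by the difference in the same 6 IR libraries that form one side of this term, so a high share follows from the choice and nothing is read from it. *Rpl34* and *Rpl34-ps1* did not pass (-0.15 and -0.01). The count of 1519 was 1000 without Tet2-/- IR 1, 855, 853 and 700 without Tet2-/- control 1, 2 and 3, 709 without WT IR 1 and 763 without WT IR 3.

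Promoters of called genes were poorer in CpG, the dinucleotide that carries methylation, than promoters at large. Over the 300 bases around the start the ratio of observed to expected CpG had a median of 0.722 for all 16164 genes with a promoter read, 0.546 for the 347 genes called higher and 0.442 for 611 called lower, and 63.7%, 45.8% and 36.3% of promoters had a ratio of at least 0.6. By motif, the AP-1 site TGANTCA was held by 13.8% of promoters of genes called higher and 5.89% of those called lower (5.30% of all), and the TATA box TATAAA by 15.3% and 9.49% (8.01% of all). The HNF1 motif was held by 3.17% of promoters of genes called higher and 10.3% of those called lower (4.64% of all), and the HNF4 site by 0.865% and 2.45% (0.452% of all). The E-box, with 6.05% and 9.17% against 9.35%, and the TEAD site GGAATG, with 13.3% and 13.7% against 12.2%, differed less. The D-box was held by 4.90% of promoters of genes called higher and 2.45% of those called lower (2.11% of all). The core of the antioxidant response element, TGANNNNGC, had 50.7% and 40.1% against 42.3%, the metal response core 29.7% and 29.6% against 35.0%, and the sterol element 0.865% and 1.64% against 1.18%. A match to these letters is a description of the sequence, not a bound site, and DNA methylation was not measured in these libraries.

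**Figure D5:**
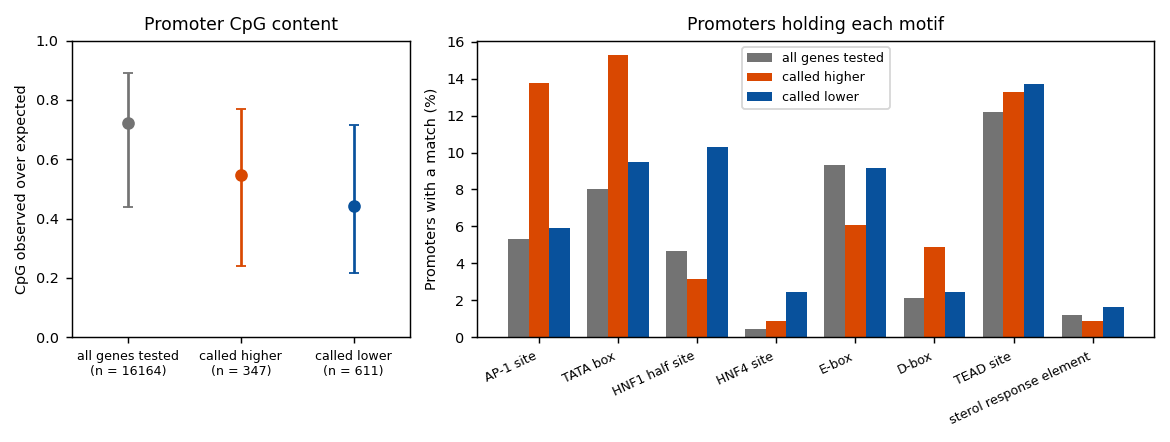
Left, the median ratio of observed to expected CpG over 300-base promoters, with the quartiles as whiskers, for all tested genes and genes called higher or lower. Right, the percentage of promoters that hold each of 8 motifs; the AP-1 site was in more promoters of genes called higher (13.8% against 5.30% of all) and the HNF1 motif in more of those called lower (10.3% against 4.64%).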

How the data were processed

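Total RNA from 12 whole kidneys, 1 mouse per library, was sequenced by the authors, who mapped reads to mm9 with STAR, counted them over RefSeq genes with HOMER and ran their own tests in edgeR. The authors deposited estimated counts and FPKM per transcript. The counts rise in steps of 0.5 (38.7% are not whole) and were rounded. Whether counting used strand, and how reads of near-identical copies (Slc22a, Cyp, Ugt, ribosomal proteins) were assigned, is not given in the sources used here. For each symbol the transcript with the highest total over 12 libraries was kept. Counts of the 6 IR libraries were filtered with filterByExpr, TMM-scaled and tested with glmQLFit (robust) and glmQLFTest of edgeR 4.0.16 in R 4.3.3, with Benjamini-Hochberg adjustment. The interaction was a contrast over 12 libraries. Alternatives used DESeq2 1.42.0 and limma 3.58.1 on log2(FPKM + 1) and log2(FPKM + 0.1). Scripts were tested on simulated data. Levels are FPKM; non-overlap was judged on TMM-scaled CPM.

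Named genes were the first of each list, the best supported calls at a mean of 10 FPKM or more, the largest differences in FPKM, and calls within 10 Mb of *Tet2*; others were named after their values were seen. Some genes that this rule names are not reported here. The lists and the comparison were chosen with earlier results of these data known. Promoters (mm9, 250 bases before to 50 after the start) were read from the genome; 7 of the 8 printed are identical to RefSeq's GRCm38.p6 table, and *Mmp7* is not. Sample groups came from the labels, and replicates are separate mice. Turning robust estimation off was tried after the data were seen.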

Additional observations from a re-analysis of the deposited data

Results flagged for a closer look

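The genotype difference after IR differed from the one without an operation in 660 of the 960 called genes, by the interaction term over all 12 libraries at an adjusted p under 0.05 (edgeR quasi-likelihood). The called genes were chosen by their difference in the same 6 IR libraries that form one side of this term, so a high count and large sizes follow in part from the choice and are given as values only. The values are differences between the 2 genotype differences on the log2 scale, and negative ones mean that the libraries labelled Tet2-/- were lower, relative to WT, after IR than without an operation. Among genes of the proximal tubule and brush border it was -1.81 for *Slc34a1*, -3.49 for *Slc7a13*, -5.77 for *Slc7a12*, -1.94 for *Slc3a1*, -2.51 for *Slc6a20b*, -2.67 for *Slc5a8*, -1.12 for *Slc36a1* and -1.66 for *Cubn*. Among genes of the proximal tubule and brush border it was also -1.59 for *Lrp2*, -1.69 for *Slc22a12*, -4.15 for *Slc22a13*, -2.48 for *Anpep*, -1.83 for *Mep1a*, -4.74 for *Mep1b* and -1.84 for *Pdzk1*. Among genes of other segments and renal transcription factors it was -1.6 for *Cldn10*, -2.58 for *Slc4a1* and -1.57 for *Emx1*. Among genes of fat, sugar and creatine metabolism it was -2.2 for *Acadm*, -3.93 for *Acox2*, -1.9 for *Bdh1*, -2.76 for *Pecr*, -2.3 for *Gk*, -1.88 for *Khk*, -1.33 for *Fbp1* and -3.4 for *Slc2a5*. Among genes of fat, sugar and creatine metabolism it was also 3.46 for *Pdk4*, 2.0 for *Slc16a1*, -3.2 for *Gamt*, -2.03 for *Agmat* and 2.09 for *Smox*. Among genes of detoxification and cholesterol synthesis it was -1.58 for *Fmo1*, -3.79 for *Cyp7b1*, -1.41 for *Ugt3a2*, -1.17 for *Sqle*, -2.37 for *Cyp51* and -1.38 for *Insig1*. Among genes of the clock it was -2.08 for *Hlf*, -1.44 for *Tef*, -1.73 for *Dbp*, -1.97 for *Ciart*, -1.56 for *Per2* and -1.48 for *Per3*. Among genes of injury and stress it was 2.68 for *Cd44*, 7.43 for *Sprr2f*, 1.68 for *Klf4*, 1.24 for *Ier5*, 1.78 for *Mt1*, 2.29 for *Mt2*, 2.51 for *Mt3* and 2.0 for *Srxn1*. Among genes of injury and stress it was also 2.95 for *Slc7a11*, -1.55 for *Herpud1*, -1.34 for *Shmt2*, 8.7 for *Saa3* and 4.55 for *Serpina3n*. Among genes of proteolysis, matrix and cytoskeleton it was -1.44 for *Serpinf2*, 4.63 for *Mmp7*, 3.52 for *Mmp9*, 2.59 for *Ctgf*, 4.61 for *Tnc*, 2.59 for *Lox*, 2.41 for *Nes* and 1.54 for *Tpm4*. Among genes of proteolysis, matrix and cytoskeleton it was also 1.35 for *Msn*, 1.75 for *Pdlim7*, 1.52 for *Tubb6* and 1.43 for *Ctsd*. Among genes of secreted signals, coagulation and macrophages it was 1.77 for *Adm*, 5.05 for *Ereg*, -1.96 for *Ghr*, -3.79 for *C8a*, 3.94 for *F13a1*, 1.28 for *Pros1*, 2.35 for *Cd14* and 5.61 for *Chil3*. Among genes of the region around *Tet2* it was -1.43 for *Adh7*, -1.53 for *Bdh2*, 2.04 for *Camk2d*, -2.35 for *Ccbl2* and -1.99 for *Slc39a8*. For named genes that were not called after IR it was -0.82 for *Gclm*, 6.18 for *Krt20*, 2.99 for *Lcn2*, 2.68 for *Plaur*, -2.24 for *Slc5a10*, -2.0 for *Tet2* and -1.09 for *Vegfa*. For genes outside these groups it was -1.77 for *Acy3*, 1.22 for *Ccdc85b*, -3.55 for *Col19a1*, -2.44 for *Col23a1*, -2.95 for *Col6a6*, 1.41 for *Ercc1*, -2.48 for *Gm4477* and -2.6 for *Keg1*. For genes outside these groups it was also -2.61 for *Napsa*, -2.06 for *Susd3* and -2.75 for *Thnsl2*. *Saa3* had at most 3 counts in every library of a control group, so the size of the value depends on the prior count and is no bound. Groups of 3 were not screened for single libraries that stand apart.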

How the results depend on the processing

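The 347 higher calls became 775 with DESeq2, 756 with edgeR's exact test, 706 in a fit of all 12 libraries, 225 with limma on log2(FPKM + 1), 542 without the fold limit and 977 at an unadjusted p. The 613 lower calls became 369 with limma on log2(FPKM + 1), 981 without the fold limit and 971 at an unadjusted p. The 144 called list members became 247 with DESeq2, 235 with the exact test, 219 with all 12 libraries, 225 without the fold limit and 264 at an unadjusted p. The 9 calls near *Tet2* became 16 with DESeq2, 14 with all 12 libraries, 14 without the fold limit and 16 at an unadjusted p, and the 1519 interaction calls became 2810 with DESeq2. Without 1 library, higher calls numbered 55 to 308, lower calls 218 to 613, list members 53 to 157, calls near *Tet2* 6 to 12 and interaction calls 700 to 2033. Shared with DESeq2 were 342 of the higher and 612 of the lower calls, and 30 and 169 were called in all 6 fits that left out 1 IR library. Same-numbered IR libraries correlated at 0.00 to 0.32 in their deviations from the group means, so the numbers were not taken to pair them. The replicate block gave 473 higher and 607 lower calls, 176 list members, 12 near *Tet2* and 1817 interaction calls. Without robust estimation there were 373 and 623. Among named genes the sign turned for 5, none of them called. Without 1 library, *C1qa* ranged from -0.12 (without Tet2-/- IR 2) to 1.18, *Fos* from -0.0585 (without WT IR 1) to 0.90, *Slc12a3* from -0.58 to 0.0842 (without Tet2-/- IR 3), *Tet1* from -0.57 to 0.0183 (without Tet2-/- IR 1; 0.0083 without Tet2-/- IR 3) and *Psma1* from -0.14 to 0.0884 (without WT IR 3). *Psma1* was at 0.0870 with library totals, 0.0141 with upper quartile factors and 0.0822 and 0.0829 with limma at a pseudocount of 1 and 0.1. The causes of these differences were not tested. With 3 libraries per group, differences near the limits were not resolved, and an exact permutation test of a single gene could not go below p = 0.10.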
